A study of Mus musculus with 6 samples.

Results

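The genes of the caseins and whey proteins of milk were followed in 6 mouse breast tumors, 3 of a test group and 3 of a control group, by RNA sequencing of total RNA. The 8 genes were taken by name: the caseins *Csn1s1*, *Csn2*, *Csn1s2a*, *Csn1s2b* and *Csn3*, and the whey protein genes *Wap*, *Lalba* and *Glycam1*. All 8 were among the 18460 genes with reads in at least 1 tumor. Control tumors came from PyMTtg;Rag1KO mice and test tumors from K14-TSLPtg;PyMTtg;Rag1KO mice, all on the Balb/c strain, and both groups received CD4+ T cells at 4 weeks of age. The PyMT oncogene is driven in mammary epithelium by the MMTV promoter, TSLP (an epithelial cytokine) is driven in skin keratinocytes by the K14 promoter, and mice without Rag1 make no T or B cells of their own. Tumors were collected at endpoint, in weeks 18 to 20. The comparison asked what differed in breast tumors when the transferred CD4+ T cells were in a mouse with raised TSLP. A tumor is named here by its group and replicate number, as in control 1 or test 2.

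Caseins are the phosphoproteins that form the micelles of milk. α- and β-caseins bind calcium phosphate, and κ-casein (*Csn3*) covers the micelle and keeps it in suspension. The whey holds α-lactalbumin (*Lalba*), which joins a galactosyltransferase to make lactose, whey acidic protein (*Wap*), and the mucin-like *Glycam1*. In the mammary gland these genes are switched on in luminal alveolar cells through pregnancy and lactation, in large part by prolactin acting through STAT5, which binds the palindromic motif TTCNNNGAA.

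On the GRCm38 assembly (mm10) the 5 casein genes stand in a cluster on chromosome 5 that spans 266.3 kb. They follow each other as *Csn1s1* (chr5:87666208-87682578), *Csn2* (chr5:87692619-87699429), *Csn1s2a* (chr5:87774450-87788798), *Csn1s2b* (chr5:87808121-87824421) and *Csn3* (chr5:87925579-87932550). The whey protein genes lie elsewhere: *Wap* at chr11:6635483-6638654, *Lalba* at chr15:98480400-98482934 and *Glycam1* at chr15:103562759-103565081. The 250 bases before the transcription start that RefSeq gives were searched on both strands for TTCNNNGAA, which reads the same on either strand, in the RefSeq promoters of GRCm38.p6. An entry was present for 6 of the 8 genes, all but *Csn3* and *Csn1s2b*. The motif was in 3 of the 6, and in 2306 of all 32851 promoters searched (7.02%). The 3 sequences that hold it are given 5′ to 3′ on the strand of the gene, with the motif in capitals, to show that the near neighbors *Csn1s1* and *Csn2* both carry it. They are the *Csn1s1* promoter (chr5:87665958-87666207, plus strand, 100 bases from the start of the motif to the RefSeq start), the *Csn2* promoter (chr5:87699426-87699675, minus strand, 93 bases) and the *Glycam1* promoter (chr15:103565082-103565331, minus strand, 145 bases).
Csn1s1: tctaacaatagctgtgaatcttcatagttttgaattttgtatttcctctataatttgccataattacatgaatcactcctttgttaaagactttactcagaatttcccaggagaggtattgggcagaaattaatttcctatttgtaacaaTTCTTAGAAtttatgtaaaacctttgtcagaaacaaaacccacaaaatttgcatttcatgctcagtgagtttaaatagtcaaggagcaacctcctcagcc
Csn2: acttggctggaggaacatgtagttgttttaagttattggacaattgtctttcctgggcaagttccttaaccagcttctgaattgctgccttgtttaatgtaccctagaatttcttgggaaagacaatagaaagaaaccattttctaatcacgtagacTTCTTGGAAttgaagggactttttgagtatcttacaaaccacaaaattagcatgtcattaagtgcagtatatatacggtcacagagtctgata
Glycam1: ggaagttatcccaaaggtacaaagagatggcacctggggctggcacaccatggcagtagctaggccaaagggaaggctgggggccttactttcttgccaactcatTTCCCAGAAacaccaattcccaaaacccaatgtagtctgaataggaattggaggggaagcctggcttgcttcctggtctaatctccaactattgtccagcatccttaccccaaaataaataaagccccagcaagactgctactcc
The sequences are of the reference assembly and not of the Balb/c mice, and a match describes these letters only and is no evidence of a bound site. *Wap*, *Lalba* and *Csn1s2a* held no match in this window. The RefSeq starts are not always those of the gene spans above: the window overlaps the span by 4 bases for *Csn2* and 5 for *Wap*, and for *Lalba* all 250 bases lie inside the span, so the bases upstream of it were not searched.

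Total expected counts, the deposited estimates of reads per gene, ran from 8373390 to 9449565 per tumor. FPKM, counts scaled by gene length and by depth, was used for levels between genes, and CPM, counts scaled by TMM library size alone, for tests. *Tslp* was read at 2, 2 and 3 expected counts in control 1, 2 and 3 and at 12, 7 and 2 in test 1, 2 and 3, so the groups overlapped. The transgene is driven in skin keratinocytes. Whether it was also active in the tumors was not tested, and these counts do not check the labels. *Rag1* was read at 4 to 27 counts per tumor, and the gene count does not say where in the transcript these reads lie, so it does not check the deletion either. All 10 luminal epithelial markers were measured in the tumors, with a summed level of 2089.5 to 4514.7 CPM in control and 5646.4 to 6392.2 CPM in test tumors.

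*Csn3* made up most of the RNA of these 8 genes in every tumor, by FPKM. Its level was 4088, 1585 and 4134 FPKM in control 1, 2 and 3, and 10248, 6286 and 9826 FPKM in test 1, 2 and 3. All 3 test tumors lay above all 3 control tumors, and control 2 was lowest. Ranked among all genes of a tumor by FPKM, *Csn3* stood 3rd, 3rd and 2nd in the test tumors and 7th, 35th and 4th in the control tumors. The mean was 8787 ± 2176 FPKM (SD, n = 3) in test and 3269 ± 1458 FPKM (SD, n = 3) in control tumors, a ratio of 2.69. The log2 fold change was 1.41 (SE 0.50), with an unadjusted p of 0.0227 and an adjusted p of 0.491 by the quasi-likelihood test of edgeR, adjusted after Benjamini and Hochberg over 13706 genes. The exact permutation test, two-sided, gave p = 0.1, the smallest that 3 against 3 tumors allow.

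*Csn2*, the β-casein gene, was almost silent in the control tumors. It was read at 4, 6 and 5 expected counts there, against 81, 210 and 16 in test 1, 2 and 3. In FPKM it stood at 0.39, 0.61 and 0.50 in the control and at 8.77, 22.1 and 1.53 in the test tumors. The groups did not overlap, although test 3 lay much nearer to the control tumors than to test 2. The mean was 10.8 ± 10.4 FPKM (SD, n = 3) in test and 0.50 ± 0.11 FPKM (SD, n = 3) in control tumors, a ratio of 21.6. The control counts were close to 3, taken as the lowest level the depth can show, so the size of this ratio rests on few reads. The log2 fold change of 4.44 (SE 0.98) was the 10th highest of the 13706 genes tested, with an unadjusted p of 0.00217 and an adjusted p of 0.394 by edgeR (quasi-likelihood, Benjamini-Hochberg). *Csn2* passed the filter on low counts, a minimum level in at least 3 tumors, only through the test tumors. Its rank and p value therefore depend on the group where it was high. The exact permutation test, two-sided, gave p = 0.1. DESeq2, run as an alternative, gave a log2 fold change of 4.47 and an adjusted p of 0.000335. In the edgeR and limma fits the adjusted p ran from 0.154 (without control 2) to 0.996 (without control 1). A Poisson test on counts pooled by group, given below, also called the gene. Even in test 2, where it was highest, *Csn2* was far below *Csn3* in FPKM.

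*Csn1s1*, the αs1-casein gene, ends 10041 bases before *Csn2* begins on the chromosome and showed no such separation of the groups. Its level was 207.6, 223.3 and 37.2 FPKM in control 1, 2 and 3, and 60.6, 212.4 and 58.4 FPKM in test 1, 2 and 3. Control 1, control 2 and test 2 were high and the other tumors low, so the groups overlapped. The mean was 110.5 ± 88.3 FPKM (SD, n = 3) in test and 156.0 ± 103.2 FPKM (SD, n = 3) in control tumors. The log2 fold change was -0.47 (SE 0.76), with an adjusted p of 0.882 by edgeR (quasi-likelihood, Benjamini-Hochberg) and an exact permutation p of 1.0.

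The other casein genes of the cluster were read at few counts, from 0 to 32 per tumor, where the level that the depth can show was taken as 3 counts. *Csn1s2a* (αs2-casein-like A) was read at 2, 7 and 32 expected counts in the control and at 7, 10 and 8 in the test tumors. *Csn1s2b* (αs2-casein-like B) was read at 7, 0 and 14 counts in the control and at 6, 9 and 13 in the test tumors. Both overlapped between the groups, and control 3 was highest for each. Neither passed the filter on low counts, and the exact permutation p was 1.0 for *Csn1s2a* and 0.7 for *Csn1s2b*.

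**Figure D1:**
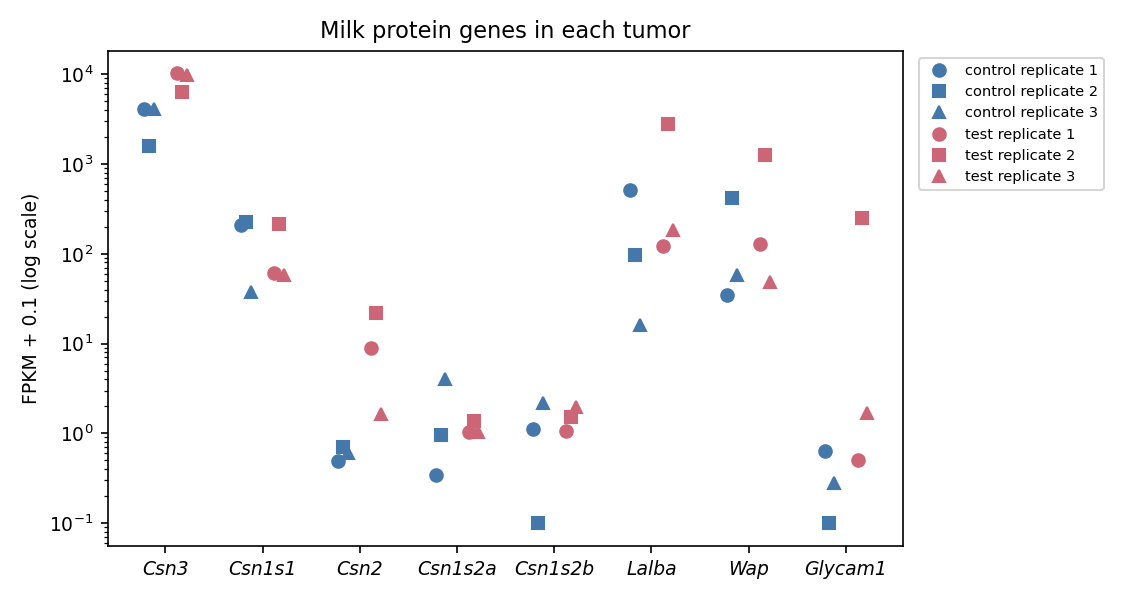
Level of each of the 8 milk protein genes in each tumor, as FPKM plus 0.1 on a log scale, with a point per tumor and the 3 control and 3 test tumors side by side. *Csn3* and *Csn2* are the genes whose test tumors all lie above the control tumors.

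The whey protein genes differed widely among tumors of the same group, and none of them separated the groups. *Lalba* stood at 511.3, 96.9 and 16.0 FPKM in control 1, 2 and 3, and at 120.5, 2817 and 185.3 FPKM in test 1, 2 and 3. Test 2 was far above the rest, and control 1 lay above both test 1 and test 3. The highest tumor exceeded the lowest by 176-fold. The log2 fold change of *Lalba* was 2.32 (SE 1.51), with an adjusted p of 0.716 by edgeR (quasi-likelihood, Benjamini-Hochberg). Without test 2 it was -0.53.

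*Wap* stood at 34.8, 415.3 and 58.4 FPKM in control 1, 2 and 3, and at 129.1, 1243 and 48.6 FPKM in test 1, 2 and 3. Test 2 was again highest, followed by control 2, and the groups overlapped. The log2 fold change was 1.58 (SE 1.31), with an adjusted p of 0.776 by edgeR (quasi-likelihood, Benjamini-Hochberg). Without test 2 it was -0.94. The exact two-sided permutation p was 0.4 for *Lalba* and 0.6 for *Wap*.

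*Glycam1* was read at 3, 0 and 1 expected counts in the control tumors and at 2, 1279 and 9 in test 1, 2 and 3. Test 2 held nearly all of these reads, and test 1 lay within the range of the controls. The gene did not pass the filter on low counts, which asks for a minimum level in at least 3 tumors, and its exact permutation p was 0.2. *Glycam1* is also a product of the high endothelial venules of lymph nodes. In test 2 the lymph node genes *Madcam1*, *Fut7* and *Ccl19* were at 0 counts, but none of these exceeded 5 counts in any tumor. *Cr2* was at 5 counts in test 2 and *Ccl21a* at 34, against 13 *Ccl21a* counts in control 2 and 0 in the other tumors. *Cxcl13* was at 13, 101 and 35 counts in control 1, 2 and 3 and at 437, 238 and 75 in test 1, 2 and 3. Of the 12 genes listed for lymph node venules and stroma, 11 had reads in some tumor (*Chst4* had none) and 5 were tested (3 higher and 2 lower in test tumors). Of these 5, 1 had an unadjusted p under 0.05 by edgeR, *Cxcl13*, higher in test tumors (3.15% of all genes tested, in that direction). The list's summed level was 107 to 335 CPM in control and 125 to 258 CPM in test tumors, with test 2 at 127 CPM. Most of the sum in test 2 came from *Chst2* (43.9 CPM), *Cxcl13* (29.1 CPM), *Gcnt1* (24.8 CPM) and *Lifr* (21.4 CPM). The part of lymph node tissue in the *Glycam1* count was not tested.

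Across the 8 genes, 2 (*Csn2* and *Csn3*) did not overlap between the groups, both with test tumors higher. Among all 13706 genes tested, 12.0% did not overlap in CPM, and 6.12% did so with test higher. Of the 8 genes, 5 passed the filter on low counts, and 0 of these 5 passed an adjusted p of 0.05 by edgeR (quasi-likelihood, Benjamini-Hochberg), as did 0 of all genes tested (0.0%). At an unadjusted p under 0.05 there were 2 of the 5, *Csn2* and *Csn3*, both higher in test tumors, against 1153 of all genes (8.41%), split into 3.15% with test higher and 5.26% with test lower. *Csn2* passed the filter only through the test tumors, so its place among the 5 and its p value depend on the group where it was high. DESeq2 called 313 genes (2.28%) at an adjusted p of 0.05, *Csn2* alone among the milk protein genes, and gave no adjusted p for *Lalba*. A Poisson test on counts pooled by group, which ignores the spread between tumors, called all 5 and 69.9% of all genes.

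**Figure D2:**
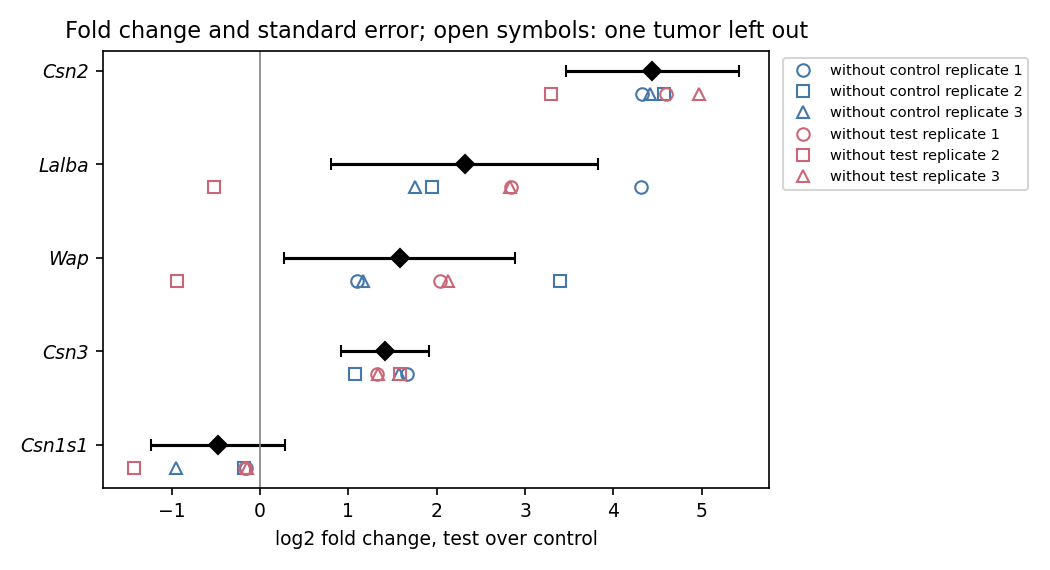
Log2 fold change, test over control, of the 5 milk protein genes tested (filled diamonds, with bars of 1 SE from edgeR) and the same with 1 tumor left out (open symbols). *Csn2* and *Csn3* stay above 0 throughout, while *Lalba* and *Wap* fall below 0 without test 2, at -0.53 and -0.94.

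The summed FPKM of the 8 genes was 4844, 2322 and 4252 in control 1, 2 and 3, and 10570, 10831 and 10125 in test 1, 2 and 3. The 3 test tumors lay close together and all above the control tumors, at 10508 ± 357 FPKM (SD, n = 3) against 3806 ± 1319 FPKM (SD, n = 3), a ratio of 2.76. In percent of all FPKM of the tumor, the 8 genes held 1.05, 0.457 and 0.899 in the control and 2.15, 1.72 and 2.00 in the test tumors. *Csn3* held 84.4%, 68.3% and 97.2% of the sum in control 1, 2 and 3, and 97.0%, 58.0% and 97.1% in test 1, 2 and 3. The similar totals thus had a different make-up in test 2, where *Lalba* and *Wap* filled most of the remainder.

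Without *Csn3* the groups overlapped. The remaining 7 genes summed to 755.9, 736.9 and 118.2 FPKM in the control and to 321.3, 4545 and 298.2 FPKM in the test tumors. Test 2 held 88.0% of the test sum. The log2 ratio of the group means was 1.68, and -0.79 without test 2.

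**Figure D3:**
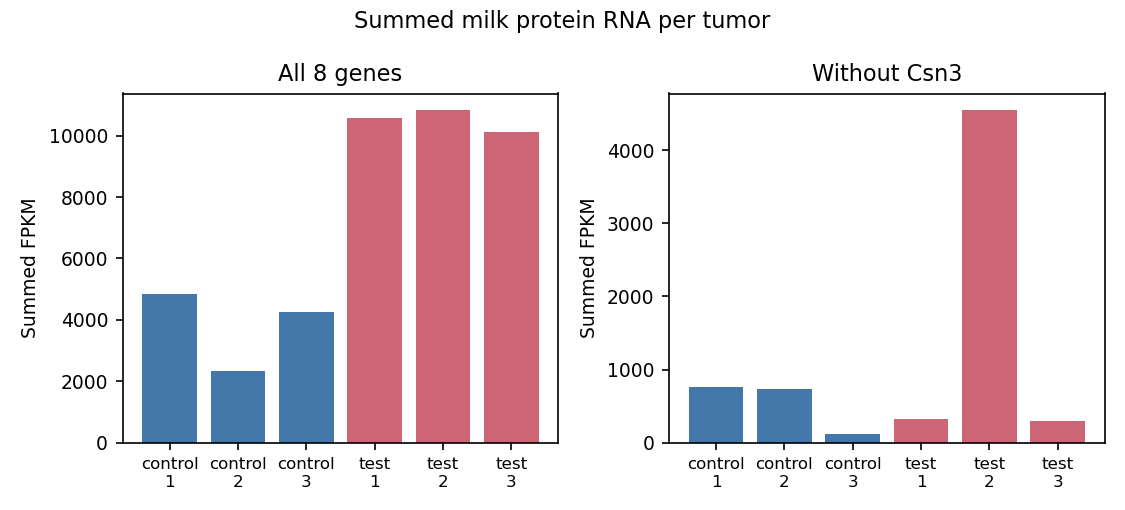
Summed FPKM in each tumor, a bar per tumor, of all 8 milk protein genes (left) and of the 7 without *Csn3* (right). With *Csn3* the test tumors are at 10125 to 10831 FPKM and all above the control tumors, and without it test 2 alone, at 4545 FPKM, stands above the others.

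*Csn2* was next compared with *Csn1s1* inside each tumor, as log2(CPM + 0.5) of the former minus that of the latter. This and 4 other such differences were chosen after the values had been seen. It was -8.36, -8.06 and -5.64 in control 1, 2 and 3, and -3.09, -3.61 and -5.25 in test 1, 2 and 3. The test tumors were all higher, by 3.37 on average, although control 3 and test 3 were close. The exact two-sided permutation p was 0.1, and 0.375 after Benjamini-Hochberg adjustment over the 5 differences. *Csn3* minus *Csn1s1* overlapped between the groups (1.92 higher in test tumors, exact p = 0.2), and so did *Csn2* minus *Csn3* (1.45 higher, exact p = 0.3).

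The luminal epithelial markers were higher in the same tumors as *Csn3* between the groups, but not among the control tumors, where control 2 had the highest luminal sum and the lowest *Csn3* level. All 10 of them had higher means in test tumors, 4 without overlap (6.12% of all genes tested, in that direction) and 3 at an unadjusted p under 0.05 (3.15% of all, in that direction), and the median log2 fold change was 0.91, beside 0.02 for all genes tested. *Krt19* (log2 fold change 1.82, SE 0.42) and *Krt8* (1.22, SE 0.37), keratins of luminal cells, had adjusted p values of 0.394 and 0.454 by edgeR (quasi-likelihood, Benjamini-Hochberg). *Csn3* minus the summed luminal markers, in log2(CPM + 0.5), was 1.52, -0.89 and 1.61 in control 1, 2 and 3, and 1.39, 0.90 and 1.29 in test 1, 2 and 3. On this scale control 1 and control 3 lay above all test tumors, the groups overlapped, and the difference of 0.45 had an exact permutation p of 1.0. *Csn2* minus the luminal sum was 1.90 higher in test tumors, with overlapping groups and an exact permutation p of 0.3. In RNA of whole tumors, more cells of a type and more RNA per cell cannot be told apart.

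**Figure D4:**
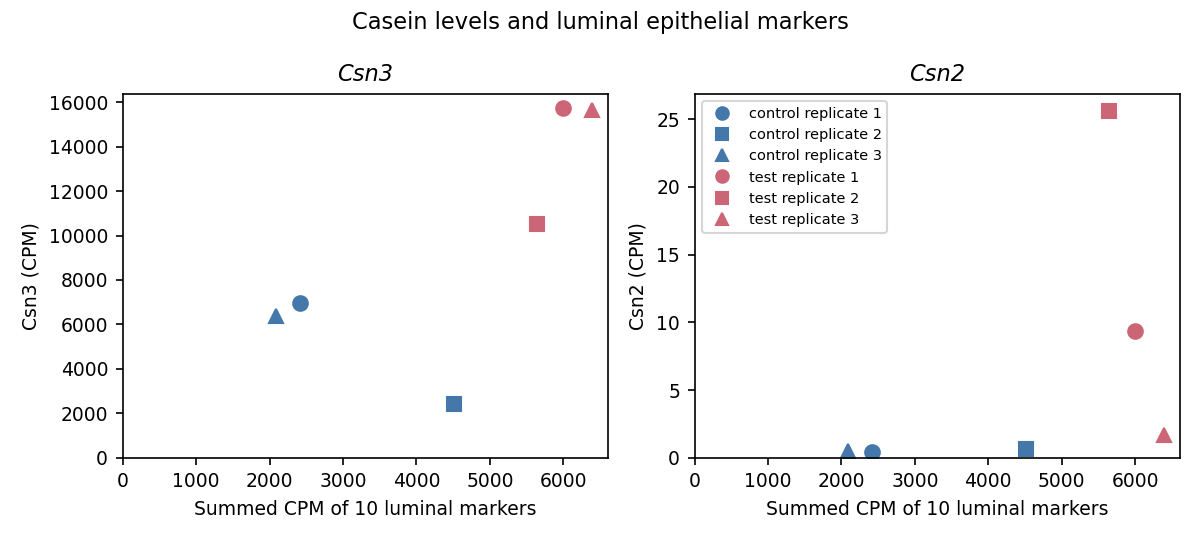
CPM of *Csn3* (left) and *Csn2* (right) against the summed CPM of the 10 luminal markers, a point per tumor, on linear axes. The test tumors lie to the upper right of the controls for *Csn3*, and control 2 has the highest luminal sum (4514.7 CPM) and the lowest *Csn3* level of the controls.

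Markers of other cells were also read. Of 9 basal or myoepithelial markers 1 was higher and 8 lower in test tumors (median log2 fold change -0.87, *Trp63* and *Oxtr* at the lowest p), with a summed level of 556 to 3736 CPM in control and 549 to 1498 CPM in test tumors. The 10 skeletal muscle markers were all higher (*Pvalb* and *Actn3* at the lowest p), at a sum of 6.39 to 203 CPM in control and 111 to 1019 CPM in test tumors. Adipocyte markers, 3 of 8 tested and led by *Cfd* and *Adipoq*, summed to 15.3 to 35.7 CPM in control and 19.9 to 289 CPM in test tumors. Immune markers, 5 of 10 tested and all 5 lower (*Ptprc* and *Cd4* at the lowest p), summed to 108 to 249.6 CPM in control and 91.6 to 165 CPM in test tumors. *Cd8a*, not tested, was read at 1, 4 and 4 counts in control and at 13, 4 and 12 in test tumors. In CPM its groups did not overlap, with test higher (6.12% of all genes tested, in that direction). Test 2 had the same 4 counts as control 2 and control 3, however, so its higher CPM (0.488 against 0.433 and 0.426) came from library scaling alone. *Cd3g* and *Cd3e*, also read at few counts and not tested, had a higher and a lower mean in test tumors. Keratinocyte markers, 2 of 8 tested, were both higher (*Krt10* and *Sbsn*), at a sum of 5.75 to 19.9 CPM in control and 15.1 to 32.2 CPM in test tumors. The part of these cells in the milk protein levels was not tested.

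Most genes of the prolactin and STAT5 pathway overlapped between the groups, and 1 of those tested did not (12.0% of all genes tested did not). Of 27 genes listed, 26 had reads (*Prl*, prolactin, had none) and 24 were tested: 10 had a higher and 14 a lower mean in test tumors. None had an unadjusted p under 0.05 by edgeR (8.41% of all genes tested did), and the median log2 fold change was -0.09. *Prlr*, the prolactin receptor, stood at 129, 236 and 183 CPM in the control and at 414, 202 and 205 CPM in test 1, 2 and 3. Test 1 was highest, while test 2 and test 3 lay within the range of the controls.

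*Stat5a*, which carries the prolactin signal to the nucleus, was at 55.3 ± 15.2 CPM (SD, n = 3) in test and 55.1 ± 20.4 CPM (SD, n = 3) in control tumors. Its log2 fold change was 0.01 (SE 0.35), and that of *Stat5b* was -0.13 (SE 0.32). *Elf5*, a transcription factor of alveolar cells, stood at 160, 517 and 282 CPM in control and at 599, 659 and 335 CPM in test tumors. Control 2 lay above test 3, and the adjusted p was 0.714 by edgeR (quasi-likelihood, Benjamini-Hochberg). The STAT5 targets *Cish* (log2 fold change -0.003) and *Socs2* (0.07), and the regulators *Cebpb* (-0.12) and *Nr3c1* (-0.07), the glucocorticoid receptor, all overlapped. The lowest p values of the list were those of *Ptpn1*, a phosphatase, (log2 fold change -0.49, groups not overlapping) and *Ghr*, the growth hormone receptor (-0.78, groups overlapping).

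The genes that modify caseins or make lactose were mixed. Of 17 tested of 18 listed, test tumors were higher for 11 and lower for 6, with a median log2 fold change of 0.13. By edgeR 1 was higher and 1 lower at an unadjusted p under 0.05 (3.15% and 5.26% of all genes tested). *Fam20c*, the Golgi kinase that phosphorylates caseins, was at 84.7, 60.6 and 45.6 CPM in control 1, 2 and 3 and at 7.84, 21.6 and 3.61 CPM in test 1, 2 and 3. All test tumors lay below the control tumors, opposite to *Csn2* and *Csn3*. Its log2 fold change was -2.53 (SE 0.63), with an adjusted p of 0.394 by edgeR (quasi-likelihood, Benjamini-Hochberg).

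*Atp2c2*, a calcium and manganese pump of the secretory pathway, was at 3.24, 14.9 and 0.746 CPM in the control and at 40.5, 20.4 and 39.2 CPM in the test tumors. The groups did not overlap, and the adjusted p was 0.526 by edgeR (quasi-likelihood, Benjamini-Hochberg). *Atp2b2*, the plasma membrane pump that exports calcium into milk, was read at only 0, 0 and 7 expected counts in the control and at 18, 16 and 8 in the test tumors. *B4galt1*, the galactosyltransferase that works with α-lactalbumin, overlapped between groups (log2 fold change 0.26, SE 0.37), as did the phosphate transporter *Slc34a2* (0.99, SE 0.71). Of the other secreted milk proteins, 27 of 28 were tested, with 19 higher and 8 lower, 4 higher and 1 lower at an unadjusted p under 0.05 (3.15% and 5.26% of all genes tested), and a median log2 fold change of 0.22. *Ltf*, lactoferrin (2.61, SE 0.69), and *Anxa1*, annexin A1 (1.496, SE 0.43), had the lowest p values, and neither overlapped between the groups. In this list 4 genes were higher and 1 was lower without overlap (12.0% of all genes tested did not overlap, and 6.12% did so with test higher). The lower one, *Slpi*, had the largest log2 fold change of the list in size (-4.02, SE 1.26).

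Of 15 genes listed beside the caseins on chromosome 5, 13 had a count above 0 and 5 were tested, with 2 higher and 3 lower in test tumors and a median log2 fold change of -0.68. Of these 5, 0 were higher without overlap between the groups and 2 were lower without overlap, *Smr3a* and *Smr2*. Of all genes tested, 12.0% did not overlap in either direction, and 6.12% did so with test higher. *Odam*, which lies between *Csn1s2b* and *Csn3*, was read at 0, 1 and 9 expected counts in control and at 2, 7 and 8 in test tumors. The sulfotransferase *Sult1d1* was read at 0, 4 and 1 counts in control and at 29, 10 and 4 in test tumors. *Sult1e1*, the estrogen sulfotransferase, was read in test 1 at 21 counts and test 3 at 2, and at 0 in the other tumors.

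On the far side of *Csn3*, the salivary genes *Smr3a* and *Smr2* ran the other way. *Smr3a* was at 71.4, 2.16 and 178 CPM in control 1, 2 and 3 and at 1.499, 0.488 and 0.318 CPM in test 1, 2 and 3. All test tumors lay below the control tumors, but control 2 was close to test 1, and the same held for *Smr2* (1.41 CPM in control 2 and 1.38 CPM in test 1). The log2 fold change was -6.75 (SE 1.51) for *Smr3a* and -6.54 (SE 1.68) for *Smr2*, with adjusted p values of 0.394 and 0.407 by edgeR (quasi-likelihood, Benjamini-Hochberg). Of the salivary list 3 of 10 genes were tested, with 2 lower in test tumors (*Smr3a* and *Dcpp2*) and 1 higher (*Bpifa2*, log2 fold change 0.39, SE 1.42), while *Amy1*, not tested, was read at 65.7 counts in test 1 and 2 to 8 in the other tumors. The list summed to 26.3 to 212 CPM in control and 1.06 to 12.7 CPM in test tumors, and the part of salivary tissue in these values was not tested.

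**Figure D5:**
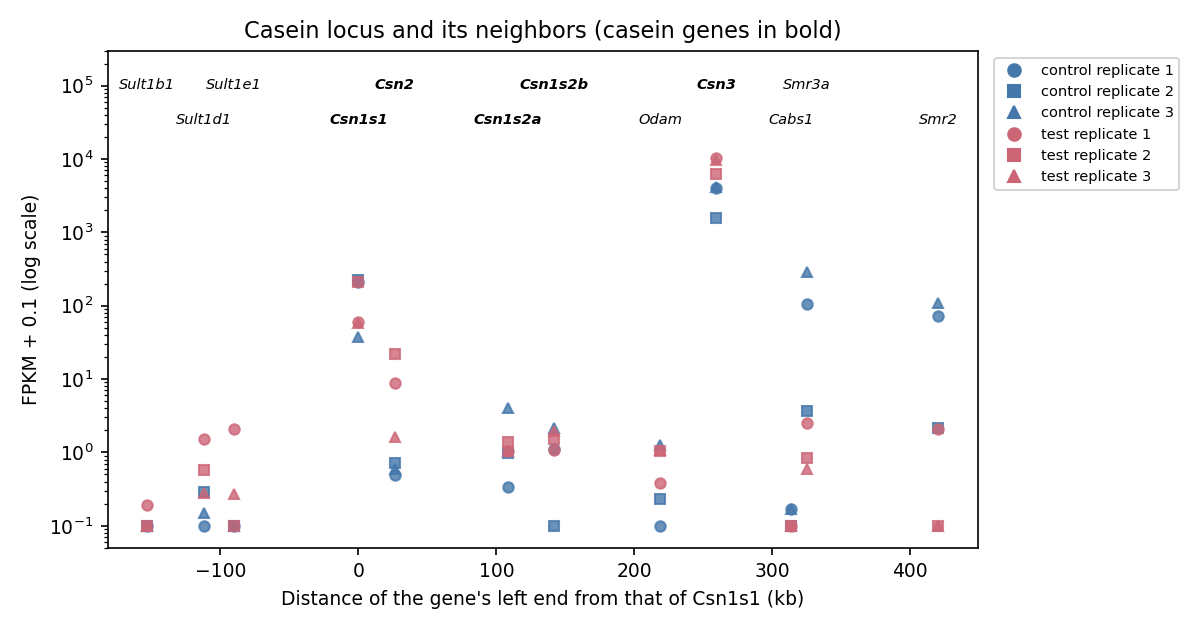
Level of the casein genes and their neighbors in each tumor, as FPKM plus 0.1 on a log scale, against the distance in kb of each gene's left end from that of *Csn1s1*. *Csn3*, at 259.4 kb, is the highest of the plotted genes in all 6 tumors, and *Smr3a*, at 325.3 kb, is lower in the test than in the control tumors.

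The genes whose pattern over the 6 tumors was most like that of *Csn2* were sought among 14014 genes, by the root mean square difference of log2(CPM + 0.5) after centering each gene. They were *Fxyd2* (0.482), *Retnla* (0.499) and *Cntnap2* (0.675), on a scale where the *Csn2* values themselves have a root mean square of 1.82. All 3 genes were at 0 to 0.694 CPM in the control tumors, near the added 0.5, so their likeness there rests on few reads. *Fxyd2* stood at 0.463, 0.216 and 0.533 CPM in the control and at 8.19, 23.7 and 3.71 CPM in test 1, 2 and 3, with test 2 highest as for *Csn2*. For *Lalba*, whose own root mean square was 2.32, the nearest were *Peg10* (1.20), *Plb1* (1.33) and *Bex4* (1.34), a looser likeness.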

How the data were processed

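Breast tumors of 3 test and 3 control mice were compared, grouped by the labels. By the paper's methods, Beijing Genomics Institute prepared the libraries, ran them on an Illumina HiSeq and aligned reads to mm10 with Bowtie. The submitters' processing notes also name RSEM and BWA, without a role. The authors deposited for each tumor an expected count per gene, which is not normalized, an FPKM, which they scaled for gene length and depth, and the gene length. A gene absent from a tumor's table was given a count of 0. Of 18460 genes, 18400 were matched by NCBI Gene identifier to a GRCm38 annotation. Total expected counts were 8373390 to 9449565 per tumor, and a floor of 3 counts covers counting error only.

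Expected counts were rounded and fitted in R 4.3.3 with edgeR 4.0.16 (filterByExpr, TMM, quasi-likelihood test without covariates, Benjamini-Hochberg adjustment over all 13706 genes kept). The SE is the log2 fold change divided by the square root of F. Exact two-sided permutation tests used all 20 splits of the 6 tumors on mean log2(CPM + 0.5) and cannot go below 0.1. DESeq2 1.42.0, limma 3.58.1 on log2(FPKM + 1), other scalings, filters and pseudocounts, a replicate block and leaving out each tumor were alternatives. The fit was tested on simulated counts.

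The milk protein genes and all gene lists were chosen with earlier results of these data known. Named genes were the 8 milk protein genes, a set of pathway, partner and neighbor genes, the 2 lowest p values per list, and the 3 genes most like *Csn2* and *Lalba*. The labels do not say how the mice of a group were related or housed, and p values measure only the spread between these tumors.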

Additional observations from a re-analysis of the deposited data

How the results depend on the processing

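The calls depended on the tool. The number of milk protein genes at an adjusted p of 0.05 went from 0 to 1 (*Csn2*) with DESeq2, which gave no adjusted p for *Lalba*, and to 5 with the pooled Poisson test. Among all genes it went from 0 to 313 with DESeq2, 1 with limma on log2(FPKM + 1) and 9578 with the Poisson test, and from 0 to 182 when a tumor was left out, the highest without control 2. With a replicate block 0 milk protein genes and 0 genes in all were called. The replicate numbers are shared by the groups, and the labels do not say whether they pair the tumors. The correlations of same-numbered deviations were -0.03, 0.11 and -0.14. With 3 tumors per group these values cannot settle that question.

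*Csn2* and *Csn3* kept their direction in every alternative that could be fitted. *Csn2* was not tested where at least 10 counts were asked of every tumor. When a tumor was left out, their log2 fold changes ran from 3.29 to 4.97 and from 1.07 to 1.66. The summed FPKM also kept its direction in every alternative, at log2 ratios of 1.21 to 1.68 with a tumor left out. The size for *Csn2* depended on the measure. As a difference of mean log2(CPM + 0.5) it was 2.98, and 2.15 to 3.94 with a tumor left out. It was 2.04 on log2(CPM + 2) and 2.47 on log2(FPKM + 1). Between 2 and 4 genes did not overlap, the highest without control 1. The share of all genes without overlap was not taken with a tumor left out, and groups of fewer tumors separate more easily. Other directions turned when a tumor was left out: *Wap* ran from -0.94 to 3.39 (log2 fold change) and -0.28 to 2.11 (difference of mean log2), *Lalba* from -0.53 to 4.31 (log2 fold change, against 0.65 to 3.36 as difference of mean log2), *Csn1s1* from -1.25 to 0.055 (difference of mean log2, against -1.43 to -0.15 as log2 fold change), *Csn1s2a* from -0.61 to 0.59 and *Csn1s2b* from -0.078 to 0.92 (both difference of mean log2), and the log2 ratio of the sum without *Csn3* from -0.79 to 2.18. *Csn1s2a* was at 0.057 on log2(FPKM + 0.1). List medians ran from -0.25 to 0.004 for the prolactin list, -0.10 to 0.56 for other secreted milk proteins and -3.15 to -0.009 for the casein neighbors. The causes were not tested.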
